A study of Drosophila melanogaster with 6 samples.

Results

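The thorax and the abdominal carcass of adult Drosophila melanogaster were compared across genes, using the 4 of 6 RNA libraries that came from these tissues. The 2 thorax libraries, labelled as skeletal muscle, were set against the 2 carcass libraries, labelled as fat body. Each tissue had 1 library from control flies and 1 from foxo RNAi flies, and the remaining 2 libraries came from gut. Control flies carried the Act88F-Gal4 driver crossed to w1118, and foxo RNAi flies carried the same driver with a UAS-Foxo RNAi transgene, so both genotypes share the driver. The Act88F promoter is active in indirect flight muscle, so the hairpin was directed to part of the thorax. All flies were 10 days old and kept on a sugar and yeast diet, and the carcass had been cleared of eggs and intestines. The labels do not state the sex of the flies.

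The adult thorax is filled by the indirect flight muscles, whose asynchronous contraction is driven by stretch as well as by calcium and is fuelled almost wholly by oxidative phosphorylation. It also holds the leg and jump muscles, the thoracic ganglion, salivary gland, foregut, proventriculus, tracheae and some fat body. The abdominal carcass is the body wall with its thin muscles, the sheets of fat body that store lipid and secrete haemolymph proteins, the oenocytes that make cuticular hydrocarbons, and the heart. Hox genes give the segments of the thorax and abdomen their identities during development, and many are still transcribed in adult tissue.

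The libraries held 17987881 counts in control thorax, 34385727 in foxo RNAi thorax, 15621447 in control carcass and 13274574 in foxo RNAi carcass. The series design text gives fewer reads per library than these counts, and how the counts exceed the reads is not known. Levels below are CPM, the reads of a gene scaled to a common library size. Each tissue and genotype had 1 library, so the test compares the tissues against what a shared genotype effect leaves unexplained. Nothing says whether a library pooled several flies. The targeted gene foxo (FBgn0038197, chromosome 3R, 14056945 to 14087978 on the plus strand, Release 6) stood at 183 CPM in control thorax and 131 CPM in foxo RNAi thorax. In carcass it stood at 90.4 and 70.1 CPM, and in gut at 111 and 88.1 CPM, in the same order of genotypes. Both thorax values lay above both carcass values, a log2 difference of 0.96 (SE 0.19, adjusted p = 0.0141 by edgeR's quasi-likelihood test). That call was lost without control thorax (adjusted p = 0.0613) or without foxo RNAi carcass (adjusted p = 0.0588).

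The 2 carcass libraries differed from each other in transcripts of other tissues. Photoreceptor genes, a list chosen after values were seen, summed to 1241 CPM in control carcass against 81.3 CPM in foxo RNAi carcass, 109 CPM in control thorax and 135 CPM in foxo RNAi thorax. The rhodopsin gene ninaE alone stood at 638 CPM in control carcass and 1.29 CPM in foxo RNAi carcass. Digestive enzyme genes made up 0.122% of reads in control carcass and 0.0323% in foxo RNAi carcass, and 0.0383% and 0.145% in control and foxo RNAi thorax, against 18.4% and 12.7% in the 2 gut libraries. Eggshell and germline transcripts were higher in foxo RNAi carcass, at 1.39% of reads on the ovary and eggshell list against 0.541% in control carcass. These contents set the 4 libraries apart by genotype as well as by tissue, and results that rest on 1 of them are given with and without it.

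Of 9293 genes tested, 3827 were called at an adjusted p under 0.05. These comprised 2031 genes higher in thorax (21.9%) and 1796 higher in carcass (19.3%), 41.2% in either direction. Counts on the gene lists below are to be read against these shares. The median log2 difference over all genes tested was -0.03. A difference of at least 2-fold was found for 1783 of the genes called higher in thorax (19.2% of those tested) and 1450 of those called higher in carcass (15.6%). Both thorax libraries lay above both carcass libraries for 37.4% of genes, and both below for 38.0%. Of the 3827 called genes, 3826 differed in the same direction in control and in foxo RNAi flies. The call itself largely requires this, since disagreement between the genotypes enters the spread, so the agreement is no separate evidence. Leaving out foxo RNAi carcass reduced the calls to 2083, and leaving out foxo RNAi thorax to 2358, against 2594 without control thorax and 3462 without control carcass. In bulk tissue, fewer cells of a type and less RNA per cell cannot be told apart, which holds for every result below.

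**Figure D1:**
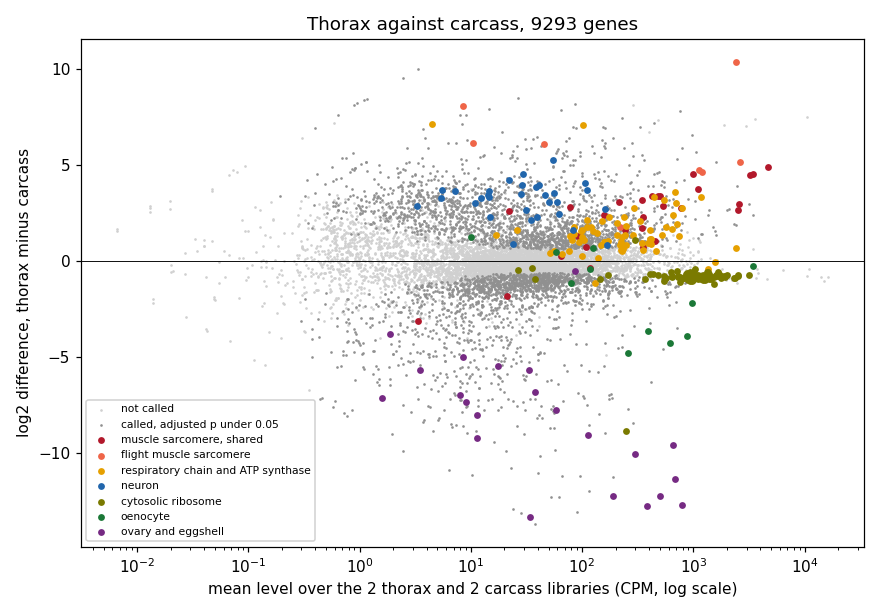
Log2 difference, thorax minus carcass, of each of the 9293 genes tested (vertical axis) against its mean level over the 4 libraries in CPM (horizontal log axis). Most sarcomere and neuron genes lie above 0, eggshell genes reach below -12, and the ribosomal protein genes form a tight band near -0.81 with RpS5b apart at -8.83.

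Genes for the contractile apparatus of flight muscle were among the largest differences. All 8 tested members of the flight muscle sarcomere list were higher in thorax, with a median log2 difference of 5.63 against -0.03 over all genes, and all 8 were called whichever library was left out. Together they took 2.05% and 1.11% of reads in control and foxo RNAi thorax and 0.0569% and 0.0445% in the carcass libraries. Act88F (FBgn0000047, chromosome 3R, 15439969 to 15442177, plus strand), the actin of indirect flight muscle, stood at 7267 and 2395 CPM in control and foxo RNAi thorax. It stood at 6.41 and 1.35 CPM in the carcass libraries, a log2 difference of 10.35 (SE 1.15, adjusted p = 0.00359). Flightin (fln), a thick-filament protein found in flight muscle, had 992 reads over the thorax libraries and 2 over the carcass libraries, a pooled ratio of 306.5 with an exact 95% interval of 84.6 to 2534 that covers counting error only. Zasp52, a Z-disc protein, stood at 6994 and 3307 CPM in thorax and 157 and 125 CPM in carcass (log2 difference 5.17, adjusted p = 0.00389). TpnC41C, a troponin C of flight muscle, stood at 76.3 and 102 CPM in thorax and 1.27 and 1.29 CPM in carcass (6.10, adjusted p = 0.00145). Of the 8 genes, 4 overlap another coding gene in part, Zasp52 and sals among them, so their counts are less certain.

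The list of sarcomere genes shared among muscles had a smaller median difference, though the 2 lists overlapped. GstS1 (1.75), Zasp66 (4.63) and Strn-Mlck (4.74) of the flight muscle list lay below sls of the shared list. Nor is every member of the flight muscle list confined to that muscle, as GstS1 had 2030 and 1456 reads in control and foxo RNAi carcass. The shared list also holds members not confined to muscle, such as Mlc-c, cpa and cpb, which were not called. Of 28 tested, 22 were higher in thorax and 2 in carcass, with a median of 2.70, and their share of reads was 4.83% and 4.54% in thorax against 0.565% and 0.515% in carcass. The titin-like gene sls, an elastic protein of the sarcomere, stood at 10840 and 7103 CPM in thorax and 423 and 195 CPM in carcass (log2 difference 4.89, adjusted p = 0.00425). Unc-89, the obscurin of the M-line, stood at 2013 and 1755 CPM in thorax and 96.1 and 66.9 CPM in carcass (4.53, adjusted p = 0.00259). The myosin light chain gene Mlc2 showed the same order, at 6891 and 6165 CPM against 277 and 294 CPM (4.52, adjusted p = 0.00207). The members higher in carcass were both troponin C genes, TpnC47D at 4.47 and 7.47 CPM in carcass against 0.268 and 1.08 CPM in thorax, and TpnC73F at 27.4 and 37.9 CPM against 5.99 and 13.1 CPM. Their log2 differences were -3.14 (adjusted p = 0.00959) and -1.84 (adjusted p = 0.00632), the first of which was lost without foxo RNAi carcass (adjusted p = 0.0551).

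The 6 actin genes separated into muscle and cytoplasmic forms. Per kilobase of exon, Act88F and Act57B were the most abundant actins of control thorax, at 4556 and 4134 CPM per kb, and Act5C and Act57B those of control carcass, with Act57B at 397 CPM per kb. Act79B, the actin of the jump and leg muscles, stood at 425 and 692 CPM in thorax and 6.96 and 8.59 CPM in carcass (log2 difference 6.11, adjusted p = 0.00171). Act87E, another muscle actin, stood at 460 and 526 CPM against 72.3 and 79.7 CPM (2.69, adjusted p = 0.00317), and Act57B at 7128 and 4137 CPM against 685 and 755 CPM (2.97, adjusted p = 0.00802). The Act57B call was lost without either carcass library (adjusted p = 0.0593 without control carcass and 0.0616 without foxo RNAi carcass). Of the cytoplasmic actins, Act42A had a log2 difference of -0.97 (adjusted p = 0.044), a call lost whichever library was left out and with no genotype term (adjusted p = 0.201), and Act5C -0.97 (adjusted p = 0.0764).

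**Figure D2:**
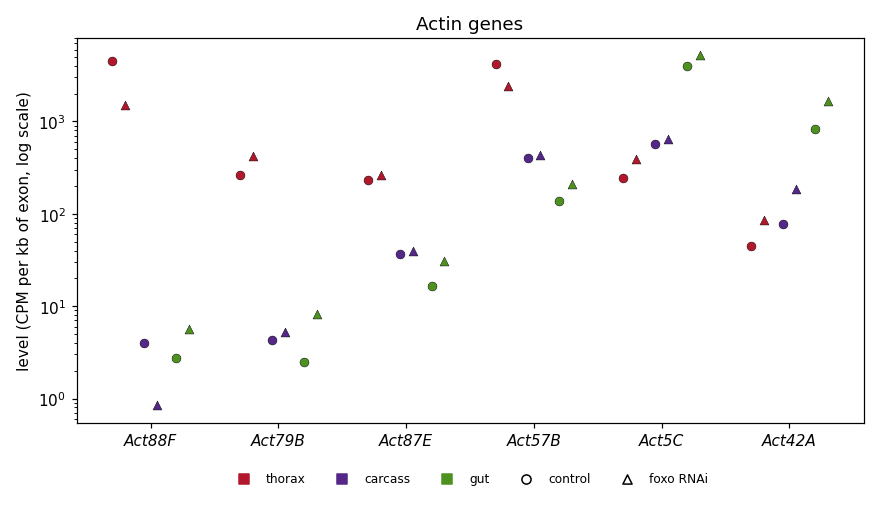
Level of each actin gene in CPM per kb of exon (log axis) in thorax, carcass and gut, 1 point per library with circles for control and triangles for foxo RNAi flies. Act88F and Act79B lie far higher in both thorax libraries than in carcass or gut, whereas the cytoplasmic Act5C and Act42A are highest in gut.

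Calcium release and membrane excitability genes differed in the same direction as the sarcomere. Of 26 tested, 18 were higher in thorax and 0 in carcass, with a median log2 difference of 1.60. The called genes include para, cac, Sh and eag, which are counted on the neuron list too. The ryanodine receptor RyR, which releases calcium from the sarcoplasmic reticulum, stood at 1100 and 974 CPM in thorax and 71.5 and 47.0 CPM in carcass (4.13, adjusted p = 0.00381). The voltage-gated potassium channel gene Shaw stood at 1371 and 373 CPM in thorax and 7.90 and 3.41 CPM in carcass (7.19, SE 0.91, adjusted p = 0.00467), so the groups were far apart although the thorax libraries also differed. CanA1, a calcineurin catalytic subunit, stood at 201 and 123 CPM against 5.03 and 3.41 CPM (5.25, adjusted p = 0.00121). The sarcoplasmic calcium-binding protein gene Scp1, named for its size and on no list, stood at 374 and 231 CPM against 3.20 and 1.65 CPM (6.96, adjusted p = 0.00335). Calmodulin (Cam) was not called, at 570 and 527 CPM in thorax and 443 and 413 CPM in carcass.

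Genes of the respiratory chain were higher in thorax by smaller factors and in large numbers. Of 70 tested nuclear genes for the respiratory chain and ATP synthase, 55 were higher in thorax and 1 in carcass, with a median log2 difference of 1.32. Their share of reads was 3.70% and 3.47% in thorax against 1.71% and 1.68% in carcass. The count fell to 31 without foxo RNAi carcass and to 36 without foxo RNAi thorax. Divided by complex after values were seen, the called genes comprised 28 of 33 for complex I (median 1.47), 4 of 4 for complex II (2.35), 8 of 8 for complex III (1.61), and 10 of 11 for complex IV (1.35). For ATP synthase, 5 of 13 were called, with a median of 0.60, and 0 were called whichever library was left out. Each of the 33 complex I genes had both thorax libraries above both carcass libraries, against 37.4% of all genes. Without foxo RNAi carcass the counts were 20 for complex I, 4 for complex II, 4 for complex III and 3 for complex IV. Complex IV gave 6 without control carcass and 5 without foxo RNAi thorax, and complex III gave 5 without foxo RNAi thorax.

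The largest differences were those of ND-B8 in complex I, with 587 reads over the thorax libraries and 2 over the carcass libraries (pooled ratio 181, exact interval 50 to 1501), and of CG34172, a relative of COX7A in complex IV, at 237 and 168 CPM in thorax and 1.71 and 1.29 CPM in carcass (7.06, adjusted p = 0.00126). ND-B8 overlaps a neighbouring gene in part. SdhB, the iron-sulfur subunit of succinate dehydrogenase, stood at 1453 and 1086 CPM in thorax and 106 and 104 CPM in carcass (3.58, adjusted p = 0.0021). ND-24, a subunit of the NADH-oxidising module of complex I, stood at 1204 and 427 CPM against 74.7 and 73.2 CPM (3.33, adjusted p = 0.00592), and its partner ND-51 had the same difference, 3.33 (adjusted p = 0.00381). RFeSP, the Rieske iron-sulfur protein of complex III, stood at 1594 and 1132 CPM against 198 and 204 CPM (2.74, adjusted p = 0.0037). By contrast the abundant ATP synthase subunit genes ATPsynbeta and blw were not called, with log2 differences of 0.68 and -0.08. COX7A was the complex IV member higher in carcass, at 78 and 82.4 CPM in thorax and 200 and 163 CPM in carcass (-1.17, adjusted p = 0.0139), a call lost without control thorax, control carcass or foxo RNAi carcass.

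All 10 genes of mitochondrial iron-sulfur cluster assembly, a list added after values were seen, were higher in thorax, with a median log2 difference of 1.70. Leaving out either control library reduced them to 6. IscU, the scaffold on which clusters are built, stood at 1539 and 1106 CPM in thorax and 91.6 and 63.1 CPM in carcass (4.10, adjusted p = 0.00209). Nfs1, the cysteine desulfurase listed as CG12264, stood at 564 and 282 CPM against 61.3 and 55.7 CPM (2.79, adjusted p = 0.00385), and it overlaps a neighbouring gene in part. Frataxin (fh) stood at 19.3 and 18.4 CPM against 6.41 and 9.12 CPM (1.30, adjusted p = 0.0188), a call lost without either control library.

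The TCA cycle was uneven. Of 22 genes, 11 were higher in thorax and 1 in carcass, with a median of 0.85, and without foxo RNAi carcass 7 were higher in thorax. Ogdh (listed as Nc73EF), the oxoglutarate dehydrogenase subunit, stood at 4461 and 2791 CPM in thorax and 736 and 391 CPM in carcass (2.71, adjusted p = 0.0055, or 0.051 without foxo RNAi carcass). Mitochondrial aconitase (Acon) stood at 3611 and 3294 CPM against 598 and 500 CPM (2.66, adjusted p = 0.00408). Citrate synthase (kdn) and mitochondrial malate dehydrogenase (Mdh2) were not called, with log2 differences of -0.43 and -0.15. Both genes are steps of the same cycle. The TCA genes higher in thorax include SdhA, SdhB, SdhC and SdhD, which are also counted above as complex II.

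Glycolysis and the flight-fuel shuttles split gene by gene. Of 15 glycolytic genes, 3 were higher in thorax and 1 in carcass, with a median of 0.17, and without foxo RNAi carcass 0 were called higher in thorax. Aldolase (Ald) stood at 6933 and 4508 CPM in thorax and 1344 and 844 CPM in carcass (2.39, adjusted p = 0.00762). Phosphofructokinase (Pfk), the committing step of glycolysis, stood at 331 and 367 CPM against 150 and 112 CPM (1.42, adjusted p = 0.0108), while fructose-1,6-bisphosphatase (fbp), which acts in the reverse direction, stood at 104 and 141 CPM against 407 and 227 CPM (-1.32, adjusted p = 0.0328). The fbp call was lost without either control library. On the flight-fuel list 7 of 20 were higher in thorax and 2 in carcass, with 4 higher in thorax without control carcass and 3 without foxo RNAi carcass, and 0 or 1 higher in carcass with any library left out. The mitochondrial glycerophosphate oxidase (Gpo-1) stood at 2011 and 1303 CPM in thorax and 572 and 207 CPM in carcass (2.17, adjusted p = 0.0188, or 0.0924 without foxo RNAi carcass). Its cytosolic partner Gpdh was not called, with a log2 difference of -0.58. The proline dehydrogenase slgA, which opens the proline pathway used as a flight fuel in some insects, stood at 730 and 428 CPM against 79.5 and 118 CPM (2.56, adjusted p = 0.00777). Adenylate kinase (Adk1) stood at 725 and 465 CPM against 28.4 and 24.1 CPM (4.49, adjusted p = 0.00195).

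Of 71 mitochondrial ribosomal protein genes, 9 were higher in thorax (12 without foxo RNAi thorax, 4 without control thorax) and 6 in carcass (0 without either foxo RNAi library), with a median of 0.17. Of 19 carrier and import genes, 2 were higher in thorax and 7 in carcass, with a median of -0.49, and 3 were higher in carcass without control thorax and 4 without foxo RNAi thorax. The outer-membrane import pore gene Tom40 stood at 47.3 and 51.0 CPM in thorax and 134 and 203 CPM in carcass (-1.75, adjusted p = 0.00476). Eggshell transcripts rank the 2 carcass libraries in the same order as Tom40, and the part of germline transcripts in its difference was not tested. The median of the carrier and import list turned to 0.32 when genes overlapping another gene were left out.

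Cytosolic ribosomal protein genes took 7.10% and 7.40% of reads in thorax and 13.3% and 15.4% in carcass. In 83 of 84 tested genes both carcass libraries lay above both thorax libraries, against 38.0% of all genes, and the median log2 difference was -0.81. Only 15 of the 84 were called higher in carcass and 0 higher in thorax. That count depended on the fit, at 1 to 3 with 1 library left out, 32 with no genotype term, 5 with DESeq2's size factors, 66 with total-count scaling and 74 with DESeq2, while the median stayed between -0.995 and -0.677 in every alternative run. RpS2 stood at 907 and 963 CPM in thorax and 1863 and 2420 CPM in carcass (-1.19, adjusted p = 0.0427), a call lost whichever library was left out. RpS5b, the paralog of RpS5a that is used in the ovary, stood at 0.91 and 1.15 CPM in thorax and 262 and 730 CPM in carcass (-8.83, adjusted p = 0.00207). Eggshell transcripts rank the 2 carcass libraries in the same order as RpS5b, and the part of germline transcripts in its difference was not tested.

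Of the 8 Hox genes, Scr and Antp were higher in thorax, and Ubx, abd-A and Abd-B were higher in carcass. Scr, which acts in the labial segment and the prothorax, stood at 10.0 and 9.84 CPM in thorax and 0.331 and 1.82 CPM in carcass (log2 difference 3.50, SE 0.74, adjusted p = 0.0177). Antp (chromosome 3R, 6896253 to 6999228, minus strand), the gene of the mesothorax, stood at 21.6 and 23.2 CPM in thorax and 6.13 and 7.24 CPM in carcass (1.75, SE 0.27, adjusted p = 0.00761). Ubx, the gene of the metathorax and anterior abdomen, stood at 12.1 and 10.5 CPM in thorax and 39.9 and 20.9 CPM in carcass (-1.37, SE 0.31, adjusted p = 0.02). The abdominal genes abd-A and Abd-B had log2 differences of -2.44 (SE 0.32, adjusted p = 0.00515) and -2.26 (SE 0.37, adjusted p = 0.00895). For abd-A the levels were 5.35 and 4.88 CPM in thorax and 33.6 and 22.5 CPM in carcass, and for Abd-B they were 2.62 and 1.97 CPM against 11.9 and 9.94 CPM. In each of these 5 genes the tissues did not overlap, as in 37.4% of all genes toward thorax and 38.0% toward carcass.

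Of the head genes lab, pb and Dfd, none was called (adjusted p = 0.114, 0.0582 and 0.211), and none exceeded 1.71 CPM in thorax or carcass. With no genotype term pb was called (2.05, adjusted p = 0.0432). The Scr call was lost without control thorax (adjusted p = 0.0635), and the Ubx call without control thorax (0.0988) or control carcass (0.0689). The cofactor hth stood at 252 and 181 CPM in thorax and 28.9 and 15.3 CPM in carcass (3.32, SE 0.30, adjusted p = 0.00231), whereas its partner exd was not called, at 109 and 133 CPM against 82.8 and 100 CPM. Neither abdominal gene was near 0 in thorax, and Antp was not near 0 in carcass. Against gut, Ubx was higher in both tissues, with a log2 difference of 2.70 in thorax (adjusted p = 0.00226) and 4.08 in carcass (adjusted p = 0.00102).

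**Figure D3:**
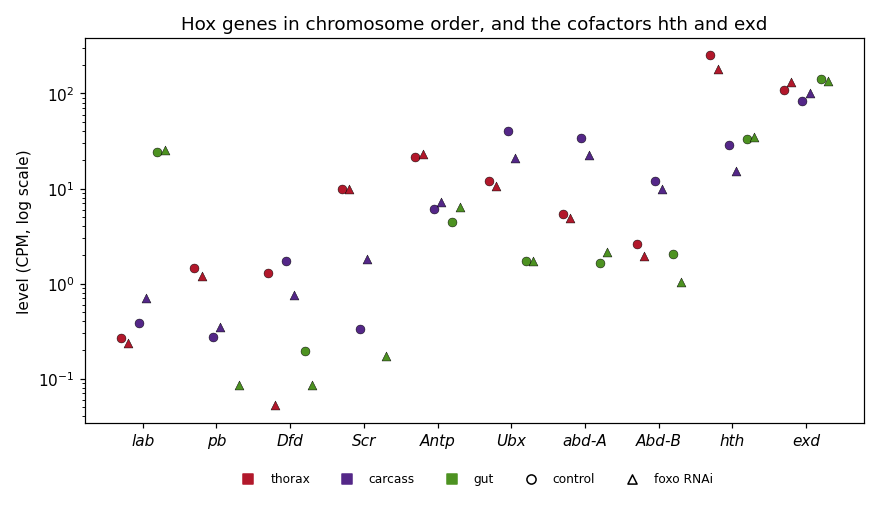
Level in CPM (log axis) of the Hox genes in chromosome order and of the cofactors hth and exd, 1 point per library, with circles for control and triangles for foxo RNAi flies and values of 0 not drawn. Scr and Antp are higher in thorax, and Ubx, abd-A and Abd-B higher in carcass.

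Genes that pattern the thorax, wing and leg were also higher in thorax. Of 29 tested, 15 were higher there and 2 in carcass, with a median log2 difference of 1.15, and the 15 fell to 5 without foxo RNAi carcass. The spalt genes, which specify fibrillar flight muscle, had levels of 80.7 and 86.5 CPM in thorax against 1.33 and 1.29 CPM in carcass for salr (5.99, SE 0.26, adjusted p = 0.00121). For salm they were 105 and 96.5 CPM against 11.9 and 8.18 CPM (3.33, adjusted p = 0.0019). The wing and flight-muscle selector vg stood at 64.0 and 57.9 CPM against 1.60 and 0.588 CPM (5.83, adjusted p = 0.00211). The apterous gene ap, which acts in the dorsal wing and in muscle, was not called, at 91.9 and 87.3 CPM against 126 and 51.1 CPM. The secreted signal hedgehog (hh) was higher in carcass, at 0.214 and 0.236 CPM in thorax and 2.04 and 1.59 CPM in carcass (-2.95, adjusted p = 0.00408).

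Neuronal genes were higher in thorax almost without exception. Of 31 tested, 29 were called higher in thorax and 0 in carcass, and in all 31 both thorax libraries lay above both carcass libraries, against 37.4% of all genes. The median log2 difference was 3.33, or 2.53 in control and 4.32 in foxo RNAi flies, and 24 to 29 genes were called with 1 library left out. Synaptotagmin (Syt1), the calcium sensor of transmitter release, stood at 210 and 184 CPM in thorax and 26.8 and 3.41 CPM in carcass (4.04, adjusted p = 0.0164). The vesicular glutamate transporter VGlut, carried by motor neurons, stood at 54.5 and 57.5 CPM against 3.92 and 1.35 CPM (4.52, adjusted p = 0.00276). Gad1, which makes GABA, stood at 124 and 90.5 CPM against 6.02 and 0.765 CPM (5.25, adjusted p = 0.00796). The sodium channel gene para stood at 78.4 and 70.6 CPM against 13.5 and 1.00 CPM (3.94, adjusted p = 0.0225). The 2 thorax libraries lay close together for these genes and the carcass libraries did not, with control carcass the higher of the carcass libraries for each of these 4. Photoreceptor transcripts ranked the carcass libraries in the same order, and their part in the result was not tested.

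Peptide hormone genes followed the neurons. Of 35 tested, 18 were higher in thorax and 1 in carcass, with a median of 2.09, and the 18 fell to 10 without foxo RNAi thorax and 11 without foxo RNAi carcass. FMRFa stood at 31.4 and 26.9 CPM in thorax and 0.0552 and 0.176 CPM in carcass (7.92, adjusted p = 0.00177). The proctolin gene Proc, a peptide transmitter at muscles, stood at 72.9 and 62.5 CPM against 1.60 and 0.706 CPM (5.85, adjusted p = 0.00465). Capa, whose peptides act on the renal tubules, stood at 24 and 23.2 CPM against 0.828 and 0.294 CPM (5.42, adjusted p = 0.0028). Nplp2 was the most abundant member in both tissues and was not called, at 2404 and 2648 CPM in thorax and 5909 and 3679 CPM in carcass. ImpL2, a secreted binding protein of insulin-like peptides, stood at 401 and 677 CPM against 185 and 108 CPM (1.78, adjusted p = 0.0383), a call lost without either foxo RNAi library.

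Sensory genes were mixed, with 9 of 29 sensory organ and cilium genes higher in thorax and 3 in carcass (median 0.83). With control thorax or either foxo RNAi library left out, 5 were higher in thorax. The contact chemosensory channel gene ppk23, found in leg and wing neurons, had 293 reads over the thorax libraries and 3 over the carcass libraries, a pooled ratio of 60.4 (exact interval 20.4 to 294). Odorant-binding protein genes gave 5 higher in thorax and 2 in carcass of 20 (median 0.57), with 8 and 1 without control carcass and 3 and 5 without foxo RNAi thorax. Obp19b stood at 21.1 and 24 CPM in thorax and 0.994 and 0.588 CPM in carcass (4.81, adjusted p = 0.00243), and Obp19c, its neighbour in name, at 0.696 and 1.76 CPM against 63.0 and 36.2 CPM (-5.32, adjusted p = 0.00407).

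The carcass is labelled fat body, and transcripts of classic fat body products were abundant in both tissues. Of 23 genes for secreted and storage proteins of fat body, 3 were higher in thorax and 2 in carcass, with a median of 0.14 that turned to -0.365 without control thorax and -0.111 without foxo RNAi carcass. The yolk protein gene Yp1 stood at 8082 and 7071 CPM in thorax and 16120 and 10782 CPM in carcass, a log2 difference of -0.79 (SE 0.37) with an adjusted p of 0.141. Yp2 and Yp3 had differences of -0.85 (adjusted p = 0.113) and -0.84 (adjusted p = 0.161). For each of the 3 genes both carcass libraries lay above both thorax libraries, as they did for 38.0% of all genes. With DESeq2 the adjusted p of Yp1 was 0.0315. All 3 were far above gut, by 4.13 for Yp1 in thorax (adjusted p = 0.00109) and 4.92 in carcass (adjusted p = 0.00102). The lipophorin gene apolpp (listed as Rfabg), which carries lipid through the haemolymph, overlapped between tissues, at 7077 and 11216 CPM in thorax and 17334 and 8212 CPM in carcass. The fat body share of reads was 3.79% and 3.76% in thorax and 7.63% and 6.38% in carcass.

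Lipid genes were more often higher in carcass than in thorax. Of 21 fatty acid oxidation and lipolysis genes, 9 were higher in carcass and 0 in thorax, with a median of -0.69, with 4 higher in carcass without either control library and 5 or 6 without either foxo RNAi library, and 5 with no genotype term. The lipase gene Lip4 stood at 40.9 and 22.9 CPM in thorax and 189 and 79.7 CPM in carcass (-2.01, adjusted p = 0.00385). The perilipin genes Lsd-1 and Lsd-2, which coat lipid droplets, had differences of -1.19 (adjusted p = 0.0446) and -1.11 (adjusted p = 0.0386), the first lost in all fits but the one without foxo RNAi thorax and the second lost whichever library was left out, and both lost with no genotype term (adjusted p = 0.174 and 0.123). The carnitine palmitoyltransferase gene whd, which admits fatty acids to mitochondria, was not called (0.74, adjusted p = 0.0778). Of 25 synthesis genes, 7 were higher in carcass and 3 in thorax, with 4 higher in carcass without control carcass and 1 higher in thorax without either foxo RNAi library. Of the 7, the enzymes eloF, Fad2, FASN3 and FASN2 had the largest differences, from -4.76 to -3.66, and belong to the oenocyte list too. The general fatty acid synthase FASN1 was not called, at 2122 and 3598 CPM in thorax and 6851 and 2276 CPM in carcass.

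The lipophorin receptor gene LpR2 stood at 300 and 222 CPM in thorax and 1039 and 697 CPM in carcass (-1.73, adjusted p = 0.00811). NLaz, a secreted lipocalin, went the other way at 327 and 254.9 CPM against 41.2 and 21.5 CPM (3.28, adjusted p = 0.00177). These belong to a list of 9 lipoproteins and receptors in which 3 were higher in each tissue.

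Oenocyte genes set the carcass apart. Of 11 tested, 6 were higher in carcass and 1 in thorax, with a median of -1.14, and 5 or 6 were called higher in carcass with 1 library left out. The 6 included enzymes of hydrocarbon synthesis. The elongase eloF stood at 42.4 and 7.66 CPM in thorax and 593 and 393 CPM in carcass (-4.76, SE 0.54, adjusted p = 0.0037). The desaturase Fad2, which acts in female pheromone synthesis, stood at 141 and 25.9 CPM against 1460 and 860 CPM (-4.25, adjusted p = 0.00425). FASN3 and FASN2, fatty acid synthases of oenocytes, had differences of -3.90 (adjusted p = 0.00425) and -3.66 (adjusted p = 0.00211), and Cpr, the electron donor of cytochrome P450 enzymes, -2.18 (adjusted p = 0.00633). For eloF, Fad2 and FASN3 the control thorax library lay above the foxo RNAi thorax library by several fold. The member higher in thorax, KFase, overlaps another gene in part, and its call was lost in 3 of the 4 fits that left out a library.

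Although eggs had been removed, ovary and eggshell transcripts were far higher in carcass, and of all the lists this one had the lowest median. Of 22 tested, 21 were higher in carcass and 0 in thorax, with a median log2 difference of -7.89, and 20 or 21 were called with 1 library left out. The vitelline membrane gene Vm26Aa stood at 0.214 and 0.236 CPM in thorax and 821 and 2344 CPM in carcass (-12.67, SE 0.58, adjusted p = 0.00121). The eggshell gene dec-1 stood at 0.535 and 0.472 CPM against 896 and 1819 CPM (-11.32, adjusted p = 0.00126). The yolk receptor gene yl stood at 4.01 and 0.289 CPM against 858 and 1761 CPM (-9.55, adjusted p = 0.00827), and the germ plasm gene osk at 0.963 and 0.367 CPM against 434 and 754 CPM (-10.03, adjusted p = 0.00231). The late chorion gene Cp19 had 0 reads in both thorax libraries and 2329 in carcass, at least 571-fold higher against a floor of 3 counts per library, and its carcass levels were 5.69 CPM in control and 131 CPM in foxo RNAi flies.

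Germline, cell cycle and nucleolar genes moved with the eggshell genes, in lists added after values were seen. All 26 germline and oogenesis regulators were higher in carcass (median -4.96), as were all 26 cell cycle and DNA replication genes (median -4.63) and 10 of 11 nucleolar genes (median -2.11). With 1 library left out, 24 to 26 cell cycle genes and 8 to 11 nucleolar genes were called. The piRNA-pathway gene piwi stood at 0.375 and 0.551 CPM in thorax and 73.3 and 149 CPM in carcass (-7.91, adjusted p = 0.00121). Cyclin B (CycB) stood at 13.7 and 6.77 CPM against 595 and 1057 CPM (-6.31, adjusted p = 0.00251), and PCNA, the sliding clamp of replication, at 1.18 and 1.31 CPM against 51.6 and 101 CPM (-5.89, adjusted p = 0.00121). Nop60B, the nucleolar pseudouridine synthase, stood at 53.4 and 44.9 CPM against 265 and 446 CPM (-2.84, adjusted p = 0.00412). In each of these 4 genes foxo RNAi carcass lay above control carcass, the order the eggshell genes also had. How much of the carcass result for ribosomal and nucleolar genes comes with germline transcripts was not tested.

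Some transcripts of 2 other abdominal organs were far higher in carcass, while other members of both lists were higher in thorax. On the female tract list 6 of 14 genes were higher in carcass and 3 in thorax (median -1.30). Of all genes tested, 19.3% were higher in carcass and 21.9% in thorax. The tract list summed to 1109 and 1033 CPM in thorax and 1035 and 424.6 CPM in carcass. CG17239 had 0 reads in both thorax libraries and 2705 in carcass, at least 634-fold higher, and CG32834 had 1 read in thorax and 6472 in carcass, a pooled ratio of 10473 (exact interval 1879 to 413732). The spermathecal endopeptidase Send1 had 2 reads over the thorax libraries and 2863 over the carcass libraries, a pooled ratio of 2316 (exact interval 641 to 19137). On the Malpighian tubule list 11 of 25 were higher in carcass and 6 in thorax (2 without foxo RNAi carcass, 3 without foxo RNAi thorax), with a median of -1.09. The tubule list summed to 1213 and 1455 CPM in thorax and 1428 and 1030 CPM in carcass, so the tissues overlapped. Urate oxidase (Uro), a marker of the main segment of the tubule, stood at 1.12 and 0.105 CPM in thorax and 87.9 and 82.4 CPM in carcass (-7.53, adjusted p = 0.00275). The zinc transporter ZnT35C stood at 0.91 and 0.787 CPM against 47.7 and 73.2 CPM (-6.18, adjusted p = 0.00271). Of 39 digestive enzyme genes, only Mal-A5 (higher in thorax) and Mal-A3 (higher in carcass) were called. The first call was lost whichever library was left out, and the second without either control library or with no genotype term (adjusted p = 0.0647).

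Blood cell and immune genes separated into different patterns. For comparison, 21.9% of all genes tested were higher in thorax and 19.3% in carcass. Of 19 haemocyte genes, 8 were higher in thorax and 0 in carcass (median 0.36), and 8 were called whichever library was left out. Hemolectin (Hml), a clotting protein of plasmatocytes, stood at 646 and 906 CPM in thorax and 127 and 98.7 CPM in carcass (2.76, adjusted p = 0.00385). The phagocytic receptor genes NimC1 and eater had differences of 2.38 (adjusted p = 0.00229) and 2.33 (adjusted p = 0.00819), while the collagen IV genes Cg25C and vkg, which fat body also makes, were not called (-0.11 and -0.28). Among 40 immune effector genes 6 were higher in thorax and 7 in carcass, with 1 higher in thorax without foxo RNAi thorax and 2 without foxo RNAi carcass, and 4 higher in carcass without control thorax or with no genotype term. Drosomycin (Drs), an antifungal peptide gene, stood at 34.1 and 82.3 CPM in thorax and 564 and 483 CPM in carcass (-3.39, adjusted p = 0.00799). Its relative Drsl5 went the other way, at 139 and 93.5 CPM against 9.50 and 5.82 CPM (3.94, adjusted p = 0.00121).

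Cuticle and tracheal lists were mixed, where 21.9% of all genes tested were higher in thorax and 19.3% in carcass. Of 40 cuticle and chitin genes, 11 were higher in thorax and 6 in carcass (median 0.36), with 6 higher in thorax without foxo RNAi thorax and 3 higher in carcass without foxo RNAi carcass. Cpr62Bb stood at 44 and 43.8 CPM in thorax and 1.55 and 0.647 CPM in carcass (5.34, adjusted p = 0.00273), and Cpr49Ab at 1.12 and 0.341 CPM against 300 and 342 CPM (-8.96, adjusted p = 0.00144). Of 18 tracheal genes, 5 were higher in thorax (3 without control thorax, 2 without foxo RNAi carcass) and 1 in carcass (median 0.32). Of these, trh, the regulator of tracheal fate, stood at 24.1 and 25.9 CPM against 5.63 and 7.00 CPM (1.99, adjusted p = 0.00615). The tracheal call toward carcass was Osi6 (-3.62), whose difference was 2.83 in control and -4.14 in foxo RNAi flies. Its difference turned to 4.70 without foxo RNAi carcass and 3.70 without foxo RNAi thorax. With no genotype term the Osi6 call was lost (adjusted p = 0.206). On the heart list 4 of 12 were higher in thorax and 2 in carcass (median 1.05), and 0 or 1 were higher in carcass with any library left out. Hand, a regulator of heart cells, was higher in carcass, at 10.1 and 8.71 CPM against 3.21 and 3.59 CPM (-1.46, adjusted p = 0.0203), a call lost without control thorax, control carcass or foxo RNAi thorax. The neprilysin gene Nep4, expressed in muscle as well as heart, stood at 60.7 and 58.1 CPM in thorax and 10.7 and 4.47 CPM in carcass (3.12, adjusted p = 0.00476).

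Detoxification genes had no common direction, and their counts stand beside 21.9% of all genes higher in thorax and 19.3% higher in carcass. Of 62 cytochrome P450 genes, 12 were higher in thorax and 14 in carcass (median 0.01), and of 32 glutathione transferase genes, 4 and 7 (median 0.30). Without foxo RNAi carcass, 7 P450 genes and 1 transferase gene were higher in thorax and 4 transferase genes in carcass. Without control thorax, 8 P450 genes and 4 transferase genes were higher in carcass and 2 transferase genes in thorax, where 7 were higher with no genotype term. Cyp6a18 stood at 0.482 and 0.0262 CPM in thorax and 22.8 and 10.0 CPM in carcass (-6.33, adjusted p = 0.0027), and Cyp4d21 at 14.1 and 19.2 CPM against 1.05 and 0.353 CPM (4.57, adjusted p = 0.00562). Of 20 heat shock genes, 6 were higher in thorax (1 without foxo RNAi carcass, 2 without control carcass or foxo RNAi thorax) and 4 in carcass (1 without either foxo RNAi library, 2 without control thorax), with reads of the near-identical Hsp70 copies uncertain. Hsp27 stood at 1.93 and 3.73 CPM against 52.3 and 109 CPM (-4.79, adjusted p = 0.0058). Eggshell transcripts rank the 2 carcass libraries in the same order as Hsp27, and the part of germline transcripts in its difference was not tested.

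Of 11 clock genes, 5 were higher in thorax and 1 in carcass (median 0.51), with 1 higher in thorax without control thorax or foxo RNAi carcass and 2 without foxo RNAi thorax. The clock repressor vri stood at 527 and 332 CPM in thorax and 137 and 40.5 CPM in carcass (2.41, adjusted p = 0.0132), and cyc, a partner of Clock, at 15.7 and 21.2 CPM against 43.2 and 48.4 CPM (-1.32, adjusted p = 0.00705). On the insulin, TOR and Foxo list 5 of 23 were higher in thorax and 3 in carcass (median 0.32), with 3 higher in thorax without control thorax or foxo RNAi carcass. Neither share exceeded that over all genes tested, 21.9% for thorax and 19.3% for carcass. Sestrin (Sesn), an inhibitor of TOR and a known Foxo target, stood at 1502 and 612 CPM in thorax and 164 and 104 CPM in carcass (2.89, adjusted p = 0.00343). The translation repressor Thor, another known Foxo target, stood at 1307 and 647 CPM against 325 and 280 CPM (1.61, adjusted p = 0.015), a call lost without either control library. The PGC-1 homologue srl was higher in carcass, at 29.1 and 30.0 CPM against 112 and 176 CPM (-2.27, adjusted p = 0.00476). Its direction was opposite to that of the respiratory chain genes. Eggshell transcripts rank the 2 carcass libraries in the same order as srl, and the part of germline transcripts in its difference was not tested.

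**Figure D4:**
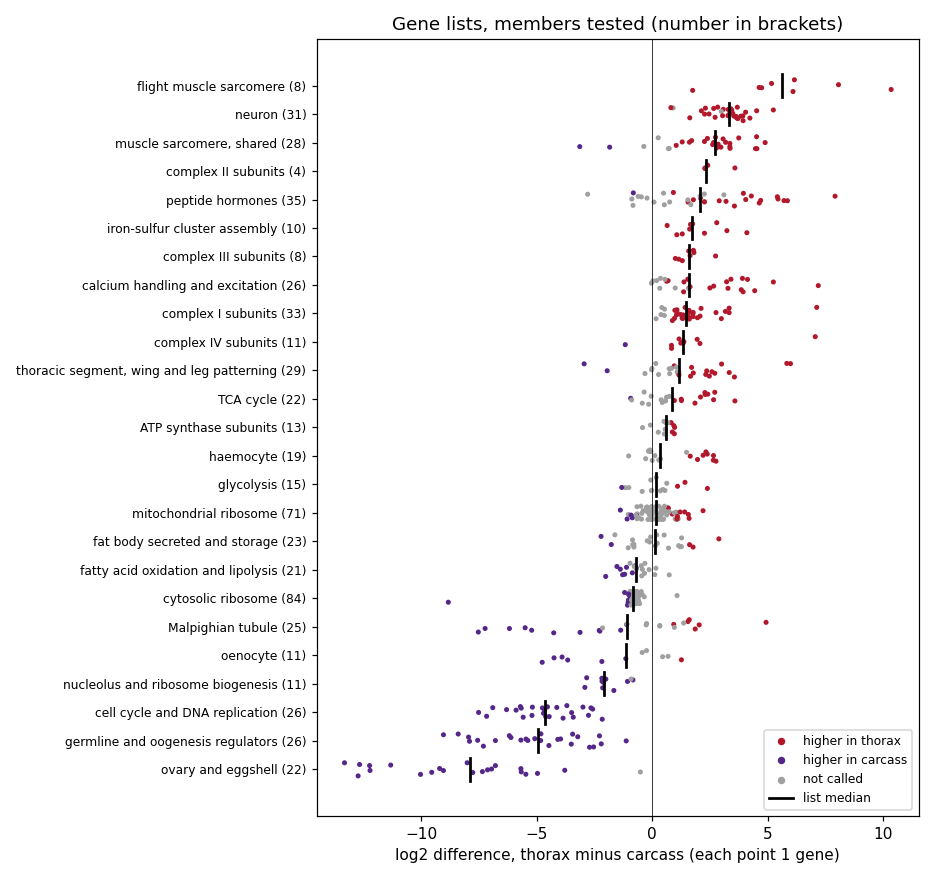
Log2 difference, thorax minus carcass, of every tested member of 25 gene lists, with the list median as a bar and points coloured by call. Medians run from 5.63 for the flight muscle sarcomere to -7.89 for ovary and eggshell, and the fat body list is centred near 0 at 0.14.

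Per kilobase of exon, the most abundant thorax transcripts were of little-studied genes. CG16826 stood at 17663 and 15419 CPM per kb in control and foxo RNAi thorax and 188 and 5.37 CPM per kb in carcass. The genes CG1678, CG45080 and lcs had the same order, with 104, 52.3 and 90.7 CPM in control carcass against 2.47, 1.53 and 2.59 CPM in foxo RNAi carcass. None of the 4 was called, and CG16826 had a log2 difference of 7.50 (SE 2.53, adjusted p = 0.063). Without control carcass it was called, at 13.3 (adjusted p = 0.0427), and so was lcs, at 12.7 (adjusted p = 0.0266). CG45080 was called without control carcass too (13, adjusted p = 0.0406), and lcs without foxo RNAi thorax (7.30, adjusted p = 0.0403). With no genotype term CG16826, CG45080 and lcs were called (adjusted p = 0.0426, 0.0476 and 0.034). In carcass the most abundant per kilobase were Yp2, Yp3 and Yp1, at 14269, 11300 and 10006 CPM per kb in control flies, followed by Nplp2 at 9686 and the elongation factor Ef1alpha48D at 9107 CPM per kb.

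The gap between the tissue differences of the genotypes had a median size of 0.52 on the log2 scale, against a median size of 0.83 for the tissue difference itself. Opposite signs with at least a 2-fold difference in each genotype were seen for 153 of 9293 genes. In 12 of these the control difference was toward thorax and in 141 toward carcass. Whether the genotypes differ in these genes was not tested, since each tissue and genotype had 1 library.

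**Figure D5:**
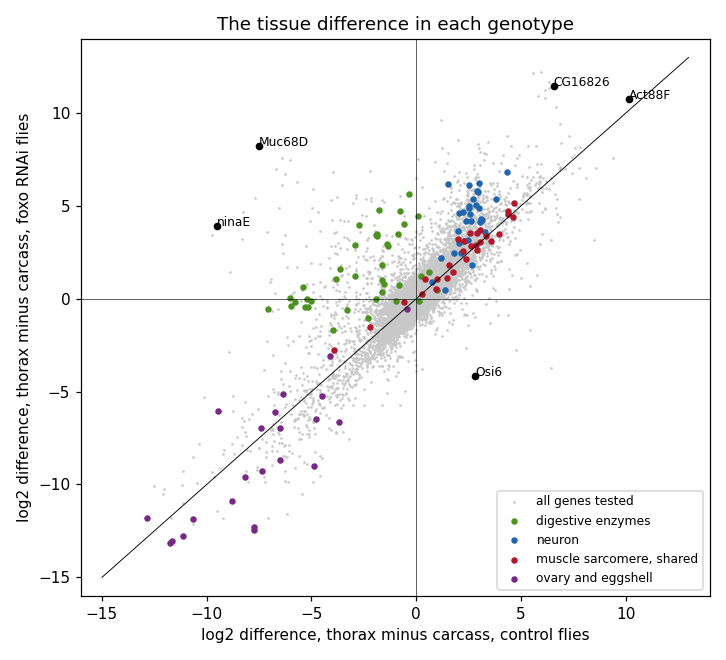
Log2 difference, thorax minus carcass, in foxo RNAi flies (vertical axis) against control flies (horizontal axis), 1 point per gene, with the line of equal values. Sarcomere and eggshell genes lie along the line, neuron genes above it, and ninaE, Muc68D and some digestive enzyme genes in the quadrant where the signs are opposite.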

How the data were processed

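RNA was sequenced from 6 libraries, 1 for each of 2 genotypes and 3 tissues. Per the labels' protocols, a stranded total RNA kit was used, and per the series design text, reads were mapped to Drosophila genome Release 6. Aligner, read counter, strand setting and gene annotation are unknown here, so antisense and overlapping genes are uncertain. The authors deposited raw counts per gene for 17609 genes, and RPKM. For genes with counts, the deposited values show RPKM divided by each gene's genomic span, introns included, and by reads per library. For 1197 genes with 0 counts in all 6 libraries RPKM was above 0, so RPKM there does not follow from the counts. The reason is unknown here. Of the 17609 genes, 17564 were matched to the given annotation and 11216 had a read. The 1816 coding genes nested within another (among them TpnC4, Mf, Cyp4g1, sesB and Mlp84B) had reads in 0 cases and were treated as not measured.

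Counts were fitted with edgeR 4.0.16 (R 4.3.3): quasi-likelihood test, TMM scaling, filtering by expression per tissue, tissue and genotype as terms, all 6 libraries sharing the spread with 2 residual degrees of freedom, and Benjamini-Hochberg adjustment over 9293 genes at 0.05. CPM use TMM-scaled library sizes, and levels between genes use exon length from the annotation. Standard errors are of the log2 difference, taken as its absolute size divided by the square root of the test's F statistic. Exact intervals used scipy 1.17.1 and take each count as a separate read, which is uncertain where counts exceed reads. The fit was also run on simulated counts with 200 changed genes, far fewer than the 3827 called here. That run therefore does not show how accurate these calls are. Genotype pairs the tissues per the labels and was kept as a covariate; p-values measure only the spread between these libraries.

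Members and lists were chosen with earlier results of these data known, and 11 lists were added after values were seen. Named genes were, per list chosen earlier, up to 6 called genes with the largest difference and up to 3 uncalled with the highest level. From the 11 added lists every tested member was counted as named, photoreceptor genes among them, so these were named after values were seen. All Hox and actin genes, foxo, Act88F and Yp1 were named too. So were the 15 largest called per direction with at least 10 CPM and a proper name, and the 10 most abundant per kilobase in each tissue. Alternatives used DESeq2 1.42.0 and limma 3.58.1 on log2(RPKM + 1). A planned promoter motif search was not done, since no sequence was used here.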

Additional observations from a re-analysis of the deposited data

Results flagged for a closer look

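For several genes the thorax minus carcass difference had opposite signs in control and foxo RNAi flies, and whether the genotypes differ was not tested, since each tissue and genotype had 1 library. The median log2 difference of the photoreceptor list was -4.72 in control and 3.32 in foxo RNAi flies. For the rhodopsin gene ninaE the values were -9.50 and 3.93, for Rh3 -7.69 and 5.42, for Rh5 -1.64 and 2.63, and for Rh6 -6.16 and 1.69. The phototransduction genes had -9.73 and 3.42 for Arr1, -8.33 and 3.24 for ninaC, -8.28 and 4.68 for trp, and -3.28 and 4.20 for trpl. The photoreceptor adhesion gene chp had -6.34 and 2.49.

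Some digestive and foregut genes, and the medians of both lists, showed the same reversal. The digestive enzyme list had a median of -1.89 in control and 1.00 in foxo RNAi flies, and the proventriculus and foregut list -1.56 and 0.68. The mucin gene Muc68D had -7.53 and 8.22, and the chitinase gene Cht4 -6.43 and 2.93. The serine proteases had -1.94 and 3.42 for Jon65Aiv, -2.72 and 3.97 for Jon65Aiii, and -2.92 and 2.92 for yip7. Osi6, a gene of the tracheal list, went the other way, at 2.83 and -4.14.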

How the results depend on the processing

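The 3827 calls (2031 higher in thorax, 1796 in carcass) ranged from 2083 to 3462 with 1 library left out, with 1086 to 1738 higher in thorax and 997 to 1724 in carcass. A lone library of a tissue was then assumed to vary like the others. Without the 3878 partly overlapping coding genes, 2412 were called, 1300 in thorax and 1112 in carcass. DESeq2 called 4437. All libraries carry the same replicate number, so the pairing used is that of genotype. Without this block the fit called 3957 (2078 and 1879). It ended 11 and added 11 calls among the named genes, and moved 11 counts of list members by over 1.5 times, among them the ribosomal protein genes higher in carcass, from 15 to 32. Total-count scaling shifted the median of all genes from -0.03 to -0.21 and the share of calls higher in thorax from 53.1% to 42.3%, limma on RPKM to -0.15 and 42.7%, upper-quartile scaling to -0.16, and leaving out genes highest in gut to 0.10.

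Of 47 list medians, 16 turned sign under at least 1 setting. The turns included mitochondrial carriers (0.32 without overlapping genes), Hox genes (0.38 with thorax and carcass libraries only, 0.0045 with limma, 0.19 without genes highest in gut), odorant-binding proteins (-0.283 and -0.36 without the foxo RNAi libraries, 1.25 without control carcass), cuticle (-0.0785 without foxo RNAi thorax, 0.656 without control carcass), female tract (0.12 with no filter, 0.13 without overlapping genes), glutathione transferases (-0.0464 without control thorax, -0.0303 without foxo RNAi carcass, 0.60 without control carcass) and heat shock genes (-0.27 with a 5 CPM filter, -0.33 with 4 libraries, -0.91 without genes highest in gut). Osi6, at -3.62, turned to 3.70 and 4.70 without the foxo RNAi libraries and stood at -4.14 without control carcass. Others were fat body products (-0.365 without control thorax, -0.111 without foxo RNAi carcass, -0.117 with no genotype term), glycolysis (-0.0949 without foxo RNAi thorax), mitochondrial ribosome (-0.0341 without control carcass), lipoproteins (0.259 without control thorax), immune effectors (0.11 without control thorax), P450 genes (-0.213 without foxo RNAi carcass), digestive enzymes (0.628 without control carcass), foregut (-1.2 without foxo RNAi thorax) and photoreceptor genes (3.36 without control carcass). The cause was not tested. Of 335 named genes called, 228 kept their call in every alternative that could test them. The named genes include all tested members of the lists added after values were seen. With 2 residual degrees of freedom, a gene that is not called is not shown to be alike in both tissues.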

Other observations

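Several pairs of related genes, chosen after their values were seen, held opposite or unlike places in the tissues. The elongation factor gene Ef1alpha100E (now eEF1alpha2) stood at 2087 and 1009 CPM in control and foxo RNAi thorax and 37.0 and 16.1 CPM in carcass (log2 difference 5.88, adjusted p = 0.00381), while Ef1alpha48D (now eEF1alpha1) was not called (-1.03, adjusted p = 0.0724). The mitochondrial phosphate carrier gene CG9090 (now Mpcp1) stood at 474 and 777 CPM against 25.2 and 22.6 CPM (4.68, adjusted p = 0.00177), and its relative Mpcp (now Mpcp2) was not called (-0.86, adjusted p = 0.0747). CG34172 (now COX7AL2) stood at 237 and 168 CPM against 1.71 and 1.29 CPM (7.06, adjusted p = 0.00126), where COX7A was higher in carcass. The chaperone gene Hsc70-1 stood at 335 and 297 CPM against 2.82 and 2.35 CPM (6.93, adjusted p = 0.00145), and the widely expressed Hsc70-4 was not called (-0.93, adjusted p = 0.0758, or 0.0475 with no genotype term). For the proton pump subunit A, Vha68-1 had a difference of 4.06 (adjusted p = 0.00221) and Vha68-2 -0.57 (adjusted p = 0.201). Differences between the members of a pair were not tested.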
